A study of Saccharomyces cerevisiae with 16 samples.

Results

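The data set is the strain by HU interaction after 1 h of hydroxyurea (HU), the comparison that asks whether deletion of *LSM1* changes how an mRNA responds to replication stress. It is the difference between *lsm1∆* and WT cells after 1 h in HU, minus the difference between *lsm1∆* and WT cells before HU, on the log2(FPKM + 1) scale. FPKM is a count of sequenced fragments divided by gene length in kilobases and by library size. Of the 16 RNA-seq libraries of the series, 8 enter this difference, 2 in each of 4 groups. The groups are *lsm1∆* cells after 1 h in 200 mM HU, WT cells after 1 h in 200 mM HU, untreated *lsm1∆* cells and untreated WT cells. Both strains are haploid *Saccharomyces cerevisiae* of the BY4741 background grown in YPD, a rich glucose medium, and all 4 groups share its marker deletions. The other 8 libraries are of the same strains at 2 and 4 h in HU and served to estimate the spread between libraries. The deleted strain is a single strain, and the sources differ on whether the 2 libraries of a group came from separate cultures, so the tests measure the spread between libraries, which may be technical.

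Lsm1 is a subunit of the cytoplasmic Lsm ring, which binds deadenylated mRNAs together with Pat1 and promotes removal of the cap, after which the exonuclease Xrn1 degrades the transcript. These factors gather in P-bodies when cells are stressed. HU inhibits ribonucleotide reductase, the enzyme that makes deoxyribonucleotides, so replication forks slow and the Mec1 and Rad53 checkpoint kinases induce the genes for the enzyme and repress others, including those for histones.

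*LSM1* itself was at 0 in both *lsm1∆* libraries in HU and at 175 and 167 FPKM in WT in HU, against 0.239 and 0.761 FPKM in untreated *lsm1∆* and 171 and 181 FPKM in untreated WT. *MET17*, *URA3* and *LEU2* were at 0 in all 8 libraries, and *HIS3* lay between 61.0 and 81.3 FPKM. The genes specific to *MATa* cells were detected in all 8, with *STE2*, the alpha factor receptor, between 251 and 377 FPKM, and the receptor of *MATalpha* cells, *STE3*, between 1.28 and 7.80 FPKM. The median FPKM over the genes tested was 40.8 and 41.2 in *lsm1∆* in HU and 40.2 and 39.4 in WT in HU, against 36.6 and 36.5 in untreated *lsm1∆* and 34.6 and 32.5 in untreated WT. The tables give no read totals. From low genes whose values fell on whole-read steps, the relative depth of all 16 libraries lay between 0.897 and 1.10.

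Of 6542 genes tested, 38 were called at an adjusted p under 0.05 (limma, Benjamini-Hochberg), which is 0.581% of them. The interaction was higher for 23 genes (0.352%) and lower for 15 (0.229%). A positive value means that the *lsm1∆* to WT ratio was larger after 1 h in HU than before it. At an unadjusted p under 0.05 there were 1032 genes (15.8%), of which 381 were above 0 (5.82%) and 651 below 0 (9.95%). The median interaction over all genes tested was -0.09, and 35.9% of genes were above 0. All 38 called genes had the same sign in both replicate numbers taken apart. Their selection from these same libraries makes that near certain, so it is no separate support. Of all genes tested, 22.3% were above 0 in both and 45.6% below 0 in both. Of the 38, 12 differed by 2-fold or more, beside 284 of all genes tested.

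The count of calls rests on the estimate of spread. With only the 8 libraries of the comparison in the fit, 3 genes were called higher and 2 lower, of which 1 in each direction, *PIR1* and YOR302W, was among the 38. Leaving out any 1 of the 8 libraries gave 1 to 9 genes called higher and 2 to 7 called lower. Each of the 38 kept its sign in all 8 of these fits, which is near certain for genes selected from the same libraries. When every library was shifted to a common median, the split became 28 higher and 10 lower. The 23 and the 15 are all named below, 10 of them (YOR302W, *PMP1*, *TAD2*, YGL102C, *RPL23A*, *RPS18A*, *RPS24A*, *RPS21B*, *RPL36A* and *RPL33B*) for being called and outside the rule that chose the other names.

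HU changed many genes in each strain. In *lsm1∆* 36.9% of genes were called after 1 h, 26.7% higher and 10.2% lower, and in WT 46.6% were called, 37.7% higher and 8.87% lower. The strains differed at 39.4% of genes in HU, with 24.6% higher and 14.8% lower in *lsm1∆*, and at 30.4% before HU, with 23.6% higher and 6.86% lower. These differences share libraries with the interaction and are given as its parts. All 23 genes called higher were higher in *lsm1∆* in HU, and 10 of them were also higher before HU. Of the 15 called lower, 12 were lower in *lsm1∆* in HU, and 9 were higher in *lsm1∆* before HU. Among the 23 called higher, the HU change was below 0 in both strains for 17, above 0 in both for 5, and above 0 in *lsm1∆* but below 0 in WT for 1. Among the 15 called lower, the HU change was above 0 in both strains for 9, below 0 in *lsm1∆* but above 0 in WT for 5, and below 0 in both for 1. The HU change was larger in size in WT than in *lsm1∆* for 17 of the 23 and for 14 of the 15. Where both strains changed in the same direction, the sign of the interaction fixes which change was larger. The shares of all genes with these patterns, or with a larger change in WT, were not computed. Over all genes tested the HU change had a standard deviation of 0.68 in WT and 0.62 in *lsm1∆*. The plot of the response in each strain shows where the called genes lie relative to the line of equal change.

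**Figure D1:**
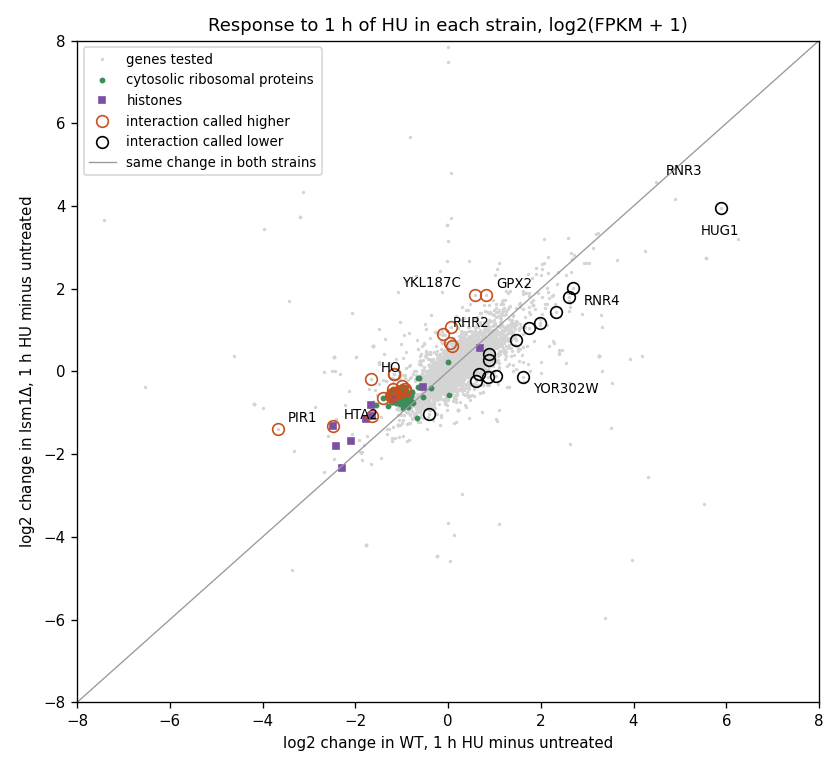
The log2 change after 1 h in HU in *lsm1∆* cells (vertical axis) is plotted against that in WT cells (horizontal axis) for the 6542 genes tested (grey), with cytosolic ribosomal protein genes (green), histone genes (purple squares) and the 38 called genes (circles) marked. The line is equal change in both strains; *PIR1* lies 2.28 above it and *HUG1* 1.95 below it on the log2 scale.

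Of 20 DNA damage checkpoint targets, 16 rose in *lsm1∆* and 17 in WT, beside 26.7% and 37.7% of all genes. *HUG1* and *RNR4* were induced less in *lsm1∆*. Hug1 is a small protein that inhibits ribonucleotide reductase and is made when the checkpoint is active. *HUG1* (YML058W-A, chromosome XIII from 158760 to 158966) had 1493 and 1255 FPKM in *lsm1∆* in HU and 3277 and 2961 FPKM in WT in HU, against 95.7 and 81.2 FPKM in untreated *lsm1∆* and 47.0 and 56.4 FPKM in untreated WT. Untreated *lsm1∆* libraries were thus above WT, and in HU they were below WT, with no overlap in either condition. The rise in HU was 15.4-fold in *lsm1∆* and 59.4-fold in WT, and the interaction was -1.95 (SE 0.21, limma adjusted p = 0.0097). With 207 bp its locus is short for a fragment library, and the 95% interval of the deposited FPKM reached 43.6% to either side in the least certain library.

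*RNR4*, which encodes a small subunit of ribonucleotide reductase, had 1760 and 1775 FPKM in *lsm1∆* in HU and 2478 and 2684 FPKM in WT in HU, against 441 and 432 FPKM in untreated *lsm1∆* and 401 and 389 FPKM in untreated WT. Its rise was 4.04-fold in *lsm1∆* and 6.51-fold in WT, an interaction of -0.69 (SE 0.09, adjusted p = 0.026). *RNR2*, the other small subunit gene, which overlaps YJL026C-A by 222 bp, had 1437 and 1405 FPKM in *lsm1∆* in HU and 2019 and 2128 FPKM in WT in HU, against 226 and 233 FPKM in untreated *lsm1∆* and 254 and 246 FPKM in untreated WT. Its interaction of -0.42 (SE 0.08) missed the threshold with an adjusted p of 0.062. For *RNR1*, the large subunit gene, the value was -0.50 (SE 0.23, adjusted p = 0.32) and *lsm1∆* libraries were above WT in both conditions. *RNR3*, the damage-induced large subunit gene, was at 179 and 132 FPKM in *lsm1∆* in HU and 92.6 and 77.0 FPKM in WT in HU, against 4.67 and 6.37 FPKM in untreated *lsm1∆* and 2.61 and 3.05 FPKM in untreated WT. It rose 23.9-fold in *lsm1∆* and 22.4-fold in WT, and the 95% interval of its interaction ran from -0.49 to 0.68.

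Of the 20 genes in the list of RNR and checkpoint targets, 2 were called lower and none higher, with a median interaction of -0.33, and 8 were below 0 at an unadjusted p under 0.05. In this list 16 genes were below 0 in both replicate numbers and none was above 0 in both. The HU change had a median of 1.08 in *lsm1∆* and 1.48 in WT. Members that missed the threshold, named here after their values were seen, include the recombination gene *RAD54* at -0.62 (adjusted p = 0.071) and the checkpoint kinase gene *RAD53* at -0.40 (adjusted p = 0.14). At 2 and 4 h the list medians were -0.09 and 0.02, beside 0.07 and 0.28 over all genes tested.

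**Figure D2:**
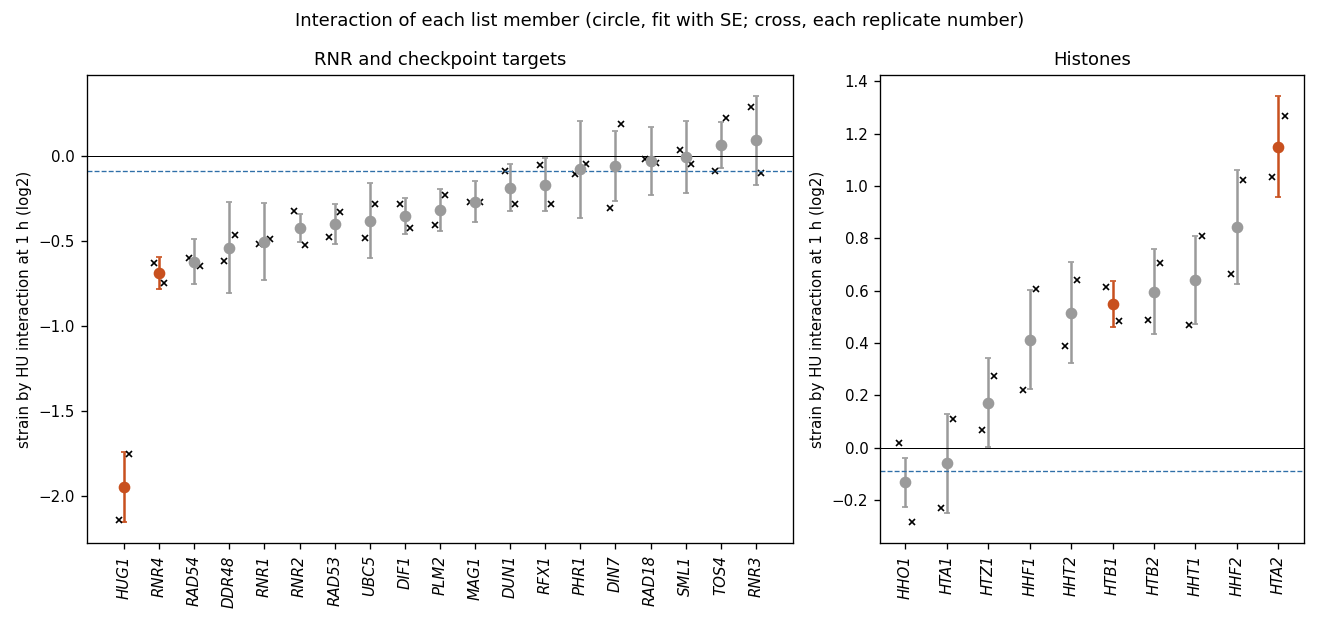
The strain by HU interaction at 1 h (log2, vertical axis) is plotted for 19 of the 20 RNR and checkpoint targets (left) and each of the 10 histone genes (right), with the standard error of the fit (bars), the values of each replicate number (crosses) and called genes in orange. The dashed line is the median of all genes at -0.09; the median of the checkpoint targets is -0.33 and that of the histones 0.53.

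YOR302W and *MET16* rose in WT at 1 h and were not called changed in *lsm1∆*. YOR302W (chromosome XV from 882765 to 882842) is the short upstream reading frame in the leader of *CPA1*, the arginine pathway gene for a subunit of carbamoyl phosphate synthetase. It had 2464 and 2317 FPKM in *lsm1∆* in HU and 7173 and 5880 FPKM in WT in HU, against 2529 and 2681 FPKM in untreated *lsm1∆* and 2088 and 2133 FPKM in untreated WT. Only the WT libraries in HU stood apart, and the interaction was -1.75 (SE 0.20, adjusted p = 0.0098). At 78 bp its FPKM values carry wide intervals, 29.0% to 53.5% to either side. *CPA1* itself, looked up afterwards, was at 65.4 and 84.9 FPKM in *lsm1∆* in HU and 151 and 165 FPKM in WT in HU, against 60.3 and 62.6 FPKM in untreated *lsm1∆* and 72.8 and 75.4 FPKM in untreated WT, an interaction of -0.81 (adjusted p = 0.075).

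*MET16* (YPR167C), the gene for phosphoadenylyl-sulfate reductase of sulfate assimilation, had 9.41 and 7.31 FPKM in *lsm1∆* in HU and 19.1 and 22.6 FPKM in WT in HU, against 9.58 and 8.65 FPKM in untreated *lsm1∆* and 8.36 and 11.01 FPKM in untreated WT. It rose 2.06-fold in WT, the change in *lsm1∆* was 0.921-fold, and the interaction was -1.16 (SE 0.21, adjusted p = 0.046). None of the 49 genes in the list of amino acid biosynthesis genes under Gcn4, the activator of these pathways, was called. Its median was -0.34, 22 were below 0 and none above 0 at an unadjusted p under 0.05, and 39 were below 0 in both replicate numbers. Low values, named after they were seen, included those of the arginine pathway genes *ARG1* (-1.96, adjusted p = 0.16) and *ARG3* (-1.50, adjusted p = 0.18). *ARG1* had 69.3 and 60.5 FPKM in *lsm1∆* in HU and 226 and 93.1 FPKM in WT in HU, against 48.8 and 47.2 FPKM in untreated *lsm1∆* and 29.96 and 24.2 FPKM in untreated WT, so the WT libraries in HU differed widely from each other. Among 26 sulfur and methionine genes 1 was called lower, *MET16*, the median was -0.19, and 8 were below 0 at an unadjusted p under 0.05.

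Of the 38 called genes, these 2 had a match to the Gcn4 motif TGACTCA in the window from 400 to 101 bases upstream of the start codon, which is why their windows are shown. Across 5636 coding genes with a window, 2.96% held TGACTCA on either strand, beside 2 of the 15 genes called lower and 0 of 19 called higher. The windows are read from the R64 genome (sacCer3), on the strand of the gene, with matches in capitals. In *MET16* the capitals mark TGACTCA and the Pho4 motif CACGTG, and in YOR302W they mark TGACTCA, the STRE motif AGGGG, a site of the stress activators Msn2 and Msn4, and the PAC motif GATGAG, on either strand.
MET16, chrXVI:877733-878032, minus strand: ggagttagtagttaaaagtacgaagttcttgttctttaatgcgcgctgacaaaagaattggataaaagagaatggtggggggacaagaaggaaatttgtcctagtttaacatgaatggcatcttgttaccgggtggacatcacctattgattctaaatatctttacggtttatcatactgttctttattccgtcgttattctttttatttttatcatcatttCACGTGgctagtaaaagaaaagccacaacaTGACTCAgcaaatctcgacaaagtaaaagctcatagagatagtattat
YOR302W, chrXV:882365-882664, plus strand: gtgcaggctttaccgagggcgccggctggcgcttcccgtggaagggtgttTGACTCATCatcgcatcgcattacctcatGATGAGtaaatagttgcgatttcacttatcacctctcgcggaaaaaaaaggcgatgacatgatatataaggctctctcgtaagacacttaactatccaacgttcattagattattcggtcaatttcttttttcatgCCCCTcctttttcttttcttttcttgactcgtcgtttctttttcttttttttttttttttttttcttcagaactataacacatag

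*AMS1*, the vacuolar alpha-mannosidase, had 27.1 and 21.9 FPKM in *lsm1∆* in HU and 36.1 and 31.2 FPKM in WT in HU, against 8.23 and 8.65 FPKM in untreated *lsm1∆* and 6.25 and 5.47 FPKM in untreated WT. The order of the strains was thus reversed by HU, with an interaction of -0.91 (SE 0.14, adjusted p = 0.037). *ECM4*, an omega-class glutathione transferase gene, rose 3.45-fold in *lsm1∆* and 6.06-fold in WT, with 42.3 and 40.7 FPKM in *lsm1∆* in HU and 61.0 and 54.0 FPKM in WT in HU, against 11.4 and 11.2 FPKM in untreated *lsm1∆* and 8.61 and 8.66 FPKM in untreated WT (interaction -0.81, SE 0.11, adjusted p = 0.027). *MSN4*, which encodes one of the paired activators of the general stress response, rose 1.60-fold in WT, and its change in *lsm1∆* was 0.956-fold (interaction -0.74, SE 0.13, adjusted p = 0.049). *ECM38*, the gamma-glutamyltransferase of vacuolar glutathione breakdown, which overlaps another locus by 93 bp, and *LAP3*, an aminopeptidase, had interactions of -0.72 and -0.60 (adjusted p = 0.037 each).

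YBR241C, which RefSeq names *VVS1*, and YEL047C, the soluble fumarate reductase *FRD1*, shared a different form. They were higher in untreated *lsm1∆* than in untreated WT by 0.93 and 0.81 on the log2 scale, and lay close together in HU. YBR241C had 47.1 and 44.1 FPKM in *lsm1∆* in HU and 43.7 and 40.2 FPKM in WT in HU, against 19.2 and 19.9 FPKM in untreated *lsm1∆* and 9.66 and 9.96 FPKM in untreated WT (interaction -0.81, SE 0.12, adjusted p = 0.031). YEL047C had 296 and 269 FPKM in *lsm1∆* in HU and 257 and 265 FPKM in WT in HU, against 141 and 129 FPKM in untreated *lsm1∆* and 78.9 and 74.9 FPKM in untreated WT (interaction -0.69, SE 0.10, adjusted p = 0.031). *ADH7*, an alcohol dehydrogenase gene, had the same form at low abundance, with 6.998 and 8.32 FPKM in *lsm1∆* in HU and 9.10 and 8.48 FPKM in WT in HU, against 9.14 and 7.88 FPKM in untreated *lsm1∆* and 4.72 and 4.11 FPKM in untreated WT (interaction -0.99, SE 0.18, adjusted p = 0.049). Its untreated WT values were under 5 FPKM, and a filter on the mean of each group left it out.

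The mitotic cyclin gene *CLB1* had 41.0 and 43.1 FPKM in *lsm1∆* in HU and 53.7 and 52.8 FPKM in WT in HU, against 48.6 and 50.4 FPKM in untreated *lsm1∆* and 33.7 and 36.2 FPKM in untreated WT. It rose in WT, and its interaction was -0.82 (SE 0.13, adjusted p = 0.037). *PMP1*, which encodes a small regulator of the plasma membrane proton pump, was the single gene called lower that fell in both strains, to 7317 and 7235 FPKM in *lsm1∆* in HU, against 14434 and 15376 FPKM in untreated *lsm1∆*, and to 11826 and 12253 FPKM in WT in HU, against 15626 and 16323 FPKM in untreated WT (interaction -0.63, SE 0.11, adjusted p = 0.041). YFR016C, which RefSeq names *AIP5*, rose 1.34-fold in *lsm1∆* and 1.86-fold in WT (interaction -0.47, SE 0.08, adjusted p = 0.037).

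**Figure D3:**
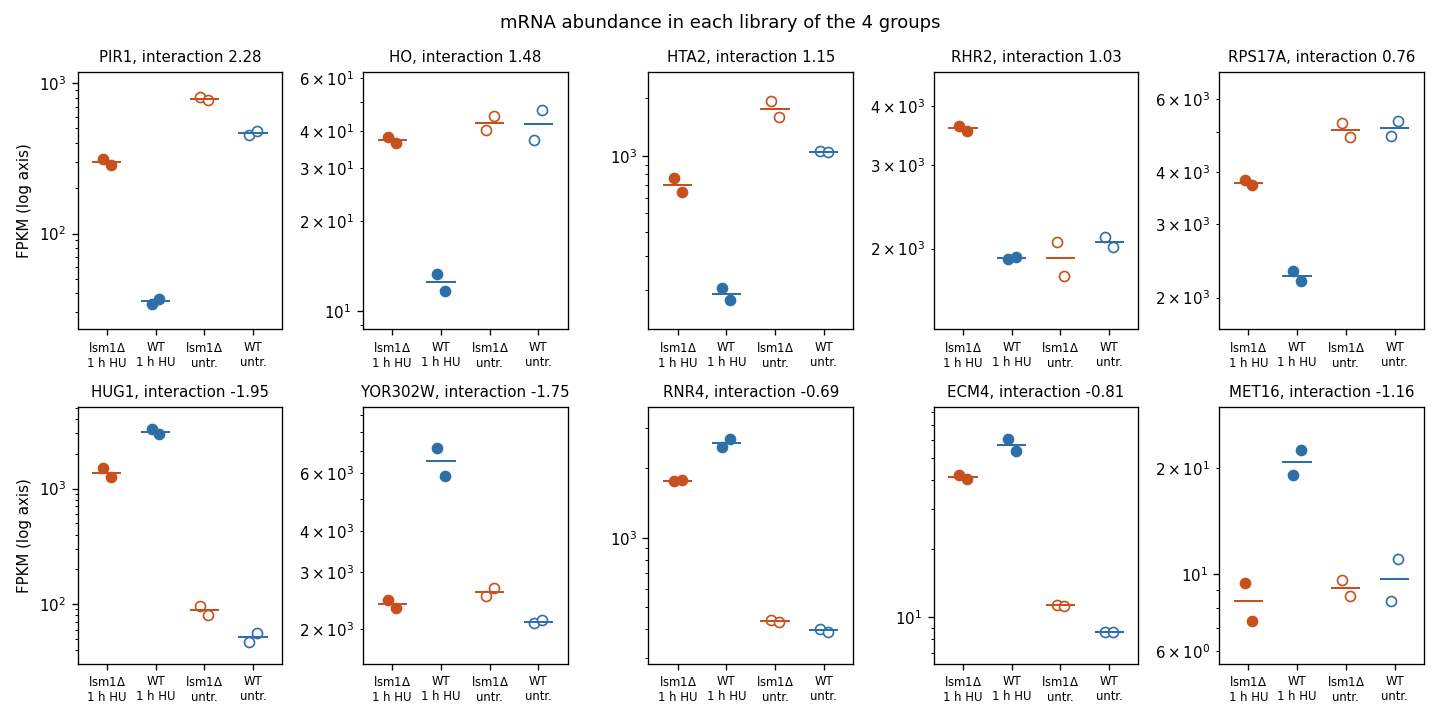
FPKM of 10 called genes (log axis) in each library, with *lsm1∆* in orange, WT in blue, 1 h HU filled and untreated open, and lines for the mean of the 2 libraries. In the upper row the interaction is positive, as in *PIR1* with 314 and 285 FPKM in *lsm1∆* in HU and 33.9 and 36.9 FPKM in WT in HU; in the lower row it is negative, and in YOR302W and *MET16* only the WT libraries in HU are displaced.

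Among called genes, the largest interaction was that of *PIR1* (YKL164C, chromosome XI from 141794 to 142819), which encodes a glycosylated protein of the cell wall and is transcribed between mitosis and G1. *PIR1* had 314 and 285 FPKM in *lsm1∆* in HU and 33.9 and 36.9 FPKM in WT in HU, against 806 and 772 FPKM in untreated *lsm1∆* and 449.8 and 480.2 FPKM in untreated WT. Its abundance fell in both strains, to 0.380 of the untreated level in *lsm1∆* and 0.0781 in WT on the log2(FPKM + 1) scale. The *lsm1∆* to WT ratio of mean FPKM was 8.46 in HU and 1.70 untreated, and the interaction was 2.28 (SE 0.20, adjusted p = 0.0038). *PIR1* was called in every fit with 1 library left out and in the fit of 8 libraries (adjusted p = 0.0049). It was the only gene called among 15 genes of the M/G1 interval with Yox1 and Mcm1 sites, whose median was -0.18, and among 35 cell wall and mannoprotein genes, whose median was -0.17. Close to it in those lists, named after their values were seen, were *PIR3*, its paralogue (1.28, adjusted p = 0.099), and the cell wall gene *PST1* (1.02, adjusted p = 0.078), both lower in HU than before in each strain.

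*HO* (YDL227C), the mating type switching endonuclease transcribed in late G1, had 38.1 and 36.4 FPKM in *lsm1∆* in HU and 13.4 and 11.7 FPKM in WT in HU, against 40.3 and 44.9 FPKM in untreated *lsm1∆* and 37.3 and 46.7 FPKM in untreated WT. Untreated libraries of the strains overlapped, and the WT libraries in HU lay apart from all others. *HO* fell to 0.316 of the untreated level in WT, and the change in *lsm1∆* was 0.879-fold with an adjusted p of 0.26. The interaction was 1.48 (SE 0.17, adjusted p = 0.0098). The 42 G1/S genes as a list held no call, with a median of -0.14, 4 above 0 and 5 below 0 at an unadjusted p under 0.05. Of 25 genes of the *CLB2* cluster *CLB1* alone was called (median -0.22).

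Histone mRNAs, which are made in S phase and repressed when replication is blocked, are the group to which *HTA2* and *HTB1* belong, and both fell less in *lsm1∆*. These encode histones H2A and H2B. *HTA2* (YBL003C) had 765 and 645 FPKM in *lsm1∆* in HU and 203 and 175 FPKM in WT in HU, against 1937 and 1592 FPKM in untreated *lsm1∆* and 1055 and 1047 FPKM in untreated WT (interaction 1.15, SE 0.19, adjusted p = 0.039). *HTB1* (YDR224C) had 1074 and 1031 FPKM in *lsm1∆* in HU and 465 and 491 FPKM in WT in HU, against 2222 and 2248 FPKM in untreated *lsm1∆* and 1472 and 1499 FPKM in untreated WT (interaction 0.55, SE 0.09, adjusted p = 0.037). Both were already more abundant in untreated *lsm1∆*, and the strains lay further apart in HU.

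The median interaction of the 10 histone genes was 0.53, 8 were above 0 in both replicate numbers and 6 were above 0 at an unadjusted p under 0.05. Their HU change had a median of -1.11 in *lsm1∆* and -1.72 in WT. *HTA1*, the other H2A gene, gave a different picture. It had 350.3 and 318 FPKM in *lsm1∆* in HU and 362 and 303 FPKM in WT in HU, against 1817 and 1579.5 FPKM in untreated *lsm1∆* and 1602 and 1624 FPKM in untreated WT, an interaction of -0.06 (adjusted p = 0.90). *HHT1*, an H3 gene and one of the study's candidates, was at 0.64 (adjusted p = 0.099). The histone genes occur in near-identical pairs, and how reads shared by a pair were divided affects each gene's value. The medians of the list at 2 and 4 h were 0.23 and 0.37, beside 0.07 and 0.28 over all genes tested.

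The windows of the 2 called histone genes show different elements. *HTA2* holds the MCB motif ACGCGT (4.06% of windows) and the RRPE motif AAATTTT (24.9%), and *HTB1* holds a pair of SCB motifs CGCGAAA (4.61%), an Aft1 motif TGCACCC (1.40%) and an STRE motif (23.7%). MCB and SCB are bound by the G1/S factors MBF and SBF. Among the 19 genes called higher with a window, 1 held the MCB motif and 2 the SCB motif, beside 1 and 0 of the 15 called lower.
HTA2, chrII:235893-236192, minus strand: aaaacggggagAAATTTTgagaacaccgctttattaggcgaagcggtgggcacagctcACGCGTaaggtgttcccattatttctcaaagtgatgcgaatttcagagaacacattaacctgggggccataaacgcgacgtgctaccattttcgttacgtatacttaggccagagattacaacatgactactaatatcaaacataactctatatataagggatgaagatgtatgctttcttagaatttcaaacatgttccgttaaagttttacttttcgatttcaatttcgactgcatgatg
HTB1, chrIV:914813-915112, minus strand: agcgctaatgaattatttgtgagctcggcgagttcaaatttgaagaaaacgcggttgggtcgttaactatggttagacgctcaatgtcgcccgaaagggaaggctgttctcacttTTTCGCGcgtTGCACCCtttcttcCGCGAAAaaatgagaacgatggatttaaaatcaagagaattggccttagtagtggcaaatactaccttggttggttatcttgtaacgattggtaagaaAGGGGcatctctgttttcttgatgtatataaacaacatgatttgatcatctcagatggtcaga

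Cytosolic ribosomal protein mRNAs fell at 1 h, 134 of 137 in *lsm1∆* and 135 in WT, beside 10.2% and 8.87% of all genes. The fall was smaller in *lsm1∆* for the 9 genes called. Over 137 genes, the HU change had a median of -0.64 in *lsm1∆* and -1.01 in WT, and the interaction had a median of 0.37, beside -0.09 over all genes. Of the 137, 132 were above 0, 131 in both replicate numbers, and 113 were above 0 at an unadjusted p under 0.05 against 2 below 0. The test called 9 of them higher and none lower. The medians of the replicate numbers were 0.29 and 0.45, and those with 1 library left out lay between 0.32 and 0.43. The small subunit (56 genes, median 0.37) and the large subunit (81 genes, median 0.37) were not tested against each other. As a share of all FPKM, the 137 genes held 24.7% and 25.6% in *lsm1∆* in HU and 23.2% and 23.3% in WT in HU, against 32.7% and 32.1% in untreated *lsm1∆* and 34.2% and 35.7% in untreated WT. The strains did not overlap in either condition, and their order was reversed.

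The called members were *RPS17A*, *RPS22A*, *RPS7A*, *RPS21B*, *RPL23A*, *RPS18A*, *RPS24A*, *RPL36A* and *RPL33B*, with interactions between 0.45 and 0.76. *RPS17A* (YML024W) had 3832 and 3727 FPKM in *lsm1∆* in HU and 2322 and 2195 FPKM in WT in HU, against 5246 and 4859 FPKM in untreated *lsm1∆* and 4900 and 5322 FPKM in untreated WT (interaction 0.76, SE 0.12, adjusted p = 0.037). Untreated libraries of the strains overlapped, and the whole difference was in HU. *RPS22A* (YJL190C) had 3522 and 3726 FPKM in *lsm1∆* in HU and 2231 and 2306 FPKM in WT in HU, against 5960 and 5426 FPKM in untreated *lsm1∆* and 5685 and 6324 FPKM in untreated WT (interaction 0.75, SE 0.12, adjusted p = 0.037). *RPL33B* differed from these in being higher in *lsm1∆* in both conditions, with 2792 and 2807 FPKM in *lsm1∆* in HU and 1451 and 1467 FPKM in WT in HU, against 4021 and 3797 FPKM in untreated *lsm1∆* and 2717 and 2863 FPKM in untreated WT (interaction 0.45, SE 0.08, adjusted p = 0.039). BUD28 and YGL102C were called higher too, at 0.64 and 0.59. They overlap *RPL22A* and *RPL28* by 372 and 423 bp, and the library kit does not keep the strand, so their reads cannot be told from those of the ribosomal genes.

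Of the 5 members below 0, the 2 at an unadjusted p under 0.05, named after their values were seen, were *RPS9A* at -0.59 (adjusted p = 0.088) and *RPL22B* at -0.45 (adjusted p = 0.20), both minor copies of a duplicated gene. *RPS9A* had 648 and 674 FPKM in *lsm1∆* in HU and 431 and 424 FPKM in WT in HU, against 970.4 and 997 FPKM in untreated *lsm1∆* and 386 and 464 FPKM in untreated WT. It fell in *lsm1∆*, and its change in WT was 1.01-fold. Most ribosomal proteins have paralogues with nearly the same sequence, which share reads. The shift also varied with abundance among the 6405 other genes, whose median was -0.14 for the 1799 with a mean under 20 FPKM, -0.11 for 3053 between 20 and 100, -0.02 for 1194 between 100 and 500, and 0.17 for 359 at 500 or more. Among 413 other genes whose WT HU change was -0.5 or less the median was 0.31, and among the 98 of these at 500 FPKM or more it was 0.41, with 84.7% above 0, beside 0.37 for the ribosomal proteins. That choice of genes uses the WT libraries of the interaction itself, so these medians are a description only. It varied with locus length as well, with 0.19 for 691 other genes under 300 bp and -0.10 for 5714 of 300 bp or more. The part of abundance, length and the size of the WT fall in the result for ribosomal proteins was not tested.

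For genes that build ribosomes the values lay on the other side of 0. Of 120 ribosome biogenesis genes none was called, 117 were below 0, 109 in both replicate numbers, and the median was -0.29, with medians of -0.19 and -0.40 in the replicate numbers. At an unadjusted p under 0.05, 1 was below 0 and none above 0. Their HU change had a median of -0.48 in *lsm1∆* and -0.21 in WT. With 1 library left out the median lay between -0.55 and -0.01, so its size depends on the library left out. In HU the summed FPKM of the list was higher in replicate 2 than in replicate 1 of both strains. The sums were 11041 and 14650 in *lsm1∆* and 9444 and 13447 in WT for replicates 1 and 2.

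Genes called higher outside the ribosome and the histones included 4 that rose in *lsm1∆*. *GPX2*, a glutathione peroxidase gene, had 989 and 936 FPKM in *lsm1∆* in HU and 347 and 278 FPKM in WT in HU, against 253 and 278 FPKM in untreated *lsm1∆* and 160.1 and 190.4 FPKM in untreated WT. It rose 3.62-fold in *lsm1∆* and 1.78-fold in WT (interaction 1.03, SE 0.19, adjusted p = 0.049). *RHR2*, the glycerol phosphatase gene, had 3632 and 3546 FPKM in *lsm1∆* in HU and 1900 and 1917 FPKM in WT in HU, against 2067 and 1753 FPKM in untreated *lsm1∆* and 2114 and 2011 FPKM in untreated WT. It rose 1.88-fold in *lsm1∆*, the change in WT was 0.926-fold (adjusted p = 0.33), and the interaction was 1.03 (SE 0.12, adjusted p = 0.012). YKL187C, which RefSeq names *FAT3*, had 38.7 and 31.0 FPKM in *lsm1∆* in HU and 10.8 and 8.96 FPKM in WT in HU, against 8.27 and 9.71 FPKM in untreated *lsm1∆* and 5.47 and 7.08 FPKM in untreated WT (interaction 1.26, SE 0.20, adjusted p = 0.037). *MUM3*, a gene of spore wall formation, was at low abundance, with 19.2 and 16.7 FPKM in *lsm1∆* in HU and 3.98 and 4.37 FPKM in WT in HU, against 8.47 and 7.50 FPKM in untreated *lsm1∆* and 3.82 and 4.06 FPKM in untreated WT (interaction 1.01, SE 0.17, adjusted p = 0.039). All its WT values were under 5 FPKM, so it entered the test only through *lsm1∆*. A filter on the mean of each group left it out, and with a pseudocount of 0.1 it was not called (limma adjusted p = 0.052).

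*GPX2* and *ECM4* both act on glutathione, both were induced by HU in both strains, and their interactions had opposite signs. Each window holds the Yap1 motif TTAGTAA, found in 7.10% of all windows, and the STRE motif, and these are the only windows of called genes with a Yap1 match, which is why they are shown.
GPX2, chrII:707128-707427, plus strand: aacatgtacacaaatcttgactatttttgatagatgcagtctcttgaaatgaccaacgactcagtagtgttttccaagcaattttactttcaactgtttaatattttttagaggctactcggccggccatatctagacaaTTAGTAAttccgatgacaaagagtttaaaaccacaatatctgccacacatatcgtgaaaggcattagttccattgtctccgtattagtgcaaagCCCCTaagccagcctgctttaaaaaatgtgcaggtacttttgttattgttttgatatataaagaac
ECM4, chrXI:581883-582182, plus strand: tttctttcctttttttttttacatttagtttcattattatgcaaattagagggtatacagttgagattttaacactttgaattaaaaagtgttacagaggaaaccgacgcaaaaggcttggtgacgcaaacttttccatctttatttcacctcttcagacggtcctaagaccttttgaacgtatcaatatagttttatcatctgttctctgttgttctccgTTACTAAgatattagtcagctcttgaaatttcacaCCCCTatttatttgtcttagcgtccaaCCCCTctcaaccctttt

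*TAD2*, which encodes a subunit of the tRNA adenosine deaminase, and *MRP21*, a mitochondrial ribosomal protein gene, rose 1.60-fold and 1.52-fold in *lsm1∆*, with changes of 1.03-fold and 1.06-fold in WT (interactions 0.64 and 0.52, adjusted p = 0.027 and 0.037). RUF5-1 and RUF5-2, noncoding RNAs of the copper resistance repeat on chromosome VIII, are copies with identical values and stand for 1 measurement. They had 68.1 and 61.3 FPKM in *lsm1∆* in HU and 48.8 and 43.5 FPKM in WT in HU, against 71.4 and 64.2 FPKM in untreated *lsm1∆* and 119 and 91.2 FPKM in untreated WT (interaction 1.09, SE 0.20, adjusted p = 0.049). They overlap the metallothionein genes *CUP1-1* and *CUP1-2* by 195 bp, which had an interaction of 1.10 (adjusted p = 0.061).

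Nuclear genes of oxidative phosphorylation were above 0 in 33 of 38 cases, 31 of them in both replicate numbers, with a median of 0.35 and 11 above 0 at an unadjusted p under 0.05, and none was called. Their HU change had a median of 0.47 in *lsm1∆* and 0.14 in WT, and 21 of the 38 rose in *lsm1∆*, beside 3 in WT. Over all genes tested 26.7% were called higher in *lsm1∆* and 37.7% in WT. The counts of 21 and 3 do not test the difference between strains. Among 91 genes of mitochondrial translation and import 1 was called, *MRP21*, with a median of 0.14 and 19 above 0 against 4 below 0 at an unadjusted p under 0.05. The 7 genes of mitochondrial DNA that were tested held no call and had a median of 0.23.

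**Figure D4:**
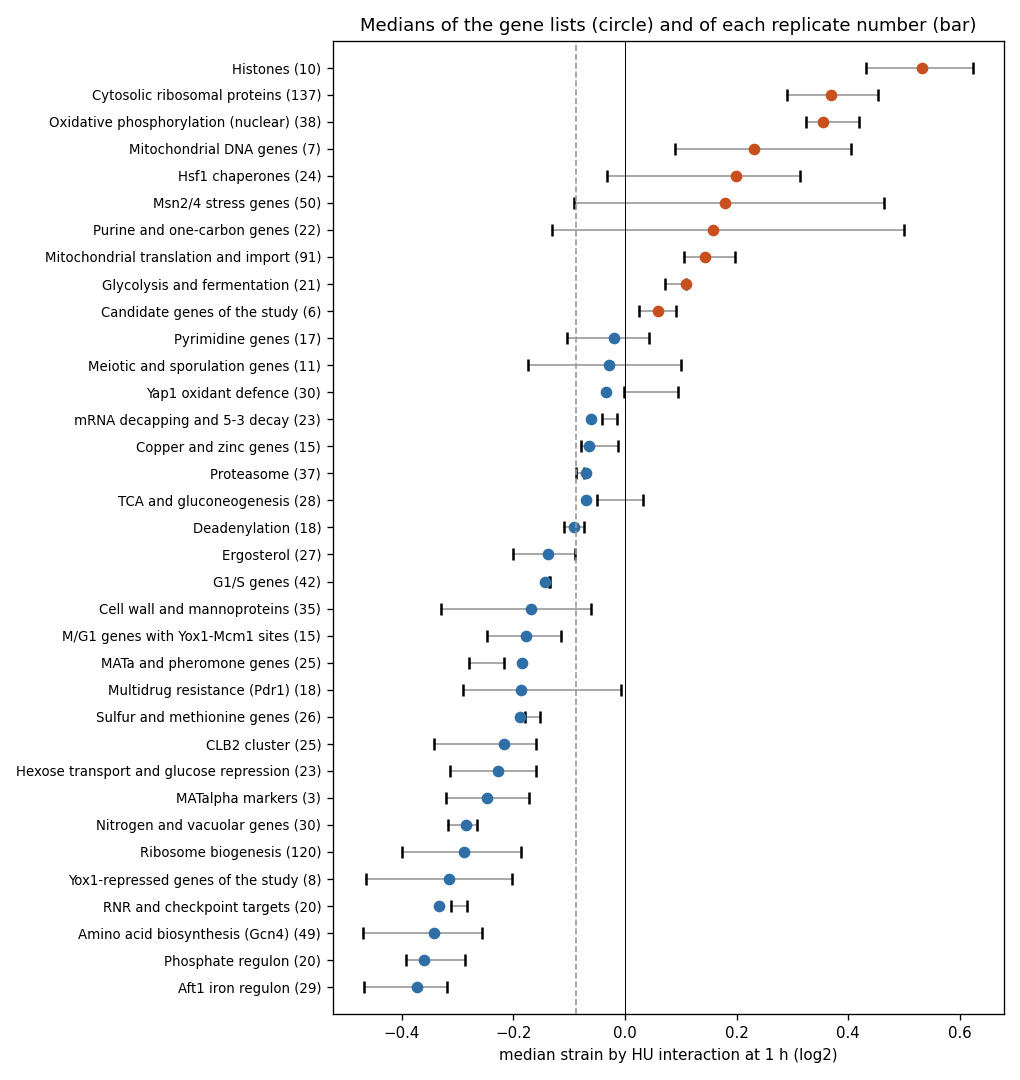
Median strain by HU interaction at 1 h (log2, horizontal axis) of 35 of the 36 gene lists, with the number of genes tested in parentheses, as circles, and the medians of each replicate number as bars. The dashed line is the median of all genes at -0.09; histones (0.53), cytosolic ribosomal proteins (0.37) and oxidative phosphorylation (0.35) are highest, and the Aft1 iron regulon (-0.37) and the phosphate regulon (-0.36) lowest.

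The factors that act with Lsm1 showed no called interaction. Among 23 genes of decapping and exonucleolytic decay the median was -0.06, with 1 above 0 and 3 below 0 at an unadjusted p under 0.05. The value of *LSM1* itself, -0.52, arises from values at or near 0 in *lsm1∆* and has no meaning as a response. *DCP1*, the decapping subunit, had the highest value, 0.62 (adjusted p = 0.15). The 18 deadenylation genes had a median of -0.09. Of the 6 candidate genes of the study, which it chose with these samples in view, none was called and the median was 0.06. At an unadjusted p under 0.05, 2 of the 6 were above 0, *HHT1* and *YOX1*, and none was below 0, beside 5.82% and 9.95% of all genes. *YOX1*, a repressor of M/G1 genes, had 27.8 and 27.6 FPKM in *lsm1∆* in HU and 16.03 and 11.6 FPKM in WT in HU, against 24.4 and 27.3 FPKM in untreated *lsm1∆* and 17.1 and 17.2 FPKM in untreated WT, an interaction of 0.41 (adjusted p = 0.31). *ACF4*, *ARL3*, *TMA16* and *RRS1* were at 0.06, -0.15, 0.06 and -0.37, with adjusted p between 0.40 and 0.87. Their *lsm1∆* libraries lay above the WT libraries in HU and before it, and the intervals of their interactions include 0. Of 8 genes that the study lists as repressed by Yox1, none was called and the median was -0.32. Among them *RAD54* was at -0.62, *ICS2* at -0.46 (adjusted p = 0.32) and *ALD6* at -0.43 (adjusted p = 0.44). The study chose these 8 also for being lower in *lsm1∆* in HU in this series, and for making *lsm1∆* more sensitive to HU when mutated. A median below 0 is therefore not independent of that choice.

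The remaining lists held 1 call, *GPX2* among 30 genes of Yap1 oxidant defence (median -0.03). Several lists of nutrient use had medians below that of all genes. The 30 nitrogen and vacuolar genes had a median of -0.29 with 11 below 0 at an unadjusted p under 0.05, and none above. The 29 genes of the Aft1 iron regulon had a median of -0.37 with 6 below 0 at that level, and the 20 of the phosphate regulon a median of -0.36 with 3. The 23 genes of hexose transport and glucose repression had a median of -0.23, with 2 above 0 and 5 below 0. Medians were -0.14 for 27 ergosterol genes, -0.19 for 18 multidrug resistance genes under Pdr1, -0.18 for 25 *MATa* and pheromone genes and -0.25 for 3 *MATalpha* markers. They were 0.11 for 21 genes of glycolysis and fermentation, -0.07 for 28 genes of the TCA cycle and gluconeogenesis, -0.07 for 37 proteasome genes, -0.07 for 15 copper and zinc genes, -0.02 for 17 pyrimidine genes and -0.03 for 11 meiotic and sporulation genes.

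For 7 lists the medians of the replicate numbers had opposite signs, those of Msn2/4, Hsf1, Yap1, purine, pyrimidine, TCA cycle and meiotic genes. The 50 Msn2/4 stress genes had a median of 0.18, with 0.46 in replicate 1 and -0.09 in replicate 2, and single members ranged from -3.06 (*HSP12*, adjusted p = 0.084) to 3.06 (*RGI1*, adjusted p = 0.12). *HSP12*, a small membrane heat shock protein gene, had 7170.3 and 5514 FPKM in *lsm1∆* in HU and 4757 and 3399 FPKM in WT in HU, against 395 and 1179.5 FPKM in untreated *lsm1∆* and 32.1 and 82.3 FPKM in untreated WT, so its untreated libraries lay far apart within each strain. The 24 Hsf1 chaperone genes had a median of 0.20, with 0.31 and -0.03 in the replicate numbers, and the 22 purine and one-carbon genes 0.16, with -0.13 and 0.50. None of these lists except that of Yap1 held a call.

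At 2 and 4 h the interaction is measured against the same untreated libraries, so the values at the 3 times are not independent of each other and are given side by side. It was called for 1.82% of genes at 2 h (1.47% higher and 0.352% lower) and 32.7% at 4 h (29% higher and 3.71% lower). Of the 23 genes called higher at 1 h, 22 were above 0 at 2 h and 16 at 4 h, and 3 and 7 of them were called higher there. Over all genes tested the median was 0.07 at 2 h. At 4 h the lower quartile over all genes was 0.01, so most of them were above 0. The 16 and the 7 thus do not set these genes apart at 4 h, where 29% of all genes were called higher. Of the 15 called lower, 1 was above 0 at 2 h and 2 at 4 h, and 5 and 9 of them were called lower there. *PIR1* was at -0.01 at 2 h and -0.28 at 4 h. *HO* was at 0.36 and 0.44, and *HTA2* at 0.21 and 0.23, none of them called. *RHR2* was at 0.76 at 2 h (adjusted p = 0.029) and 0.20 at 4 h. *HUG1* was at -1.53 and -1.46 (adjusted p = 0.019 and 0.0012), *ECM4* at -0.80 and -0.72 (adjusted p = 0.019 and 0.0018) and YOR302W at -1.21 and -1.35 (adjusted p = 0.029 and 0.0013). *MET16* was at 0.25 and 0.39, on the other side of 0. The study's candidates *YOX1*, *ACF4*, *HHT1* and *TMA16* were at 0.92, 0.68, 0.63 and 0.56 at 4 h. Their limma adjusted p were 0.0043, 0.0055, 0.017 and 0.012, where 29% of all genes were called higher. *ARL3* at 0.20 and *RRS1* at 0.34 were not called. The study chose these genes also for being higher in *lsm1∆* in HU in this series, so the values are not independent of that choice. The median of the ribosomal proteins was -0.01 at 2 h and -0.15 at 4 h, where that of all genes was 0.07 and 0.28.

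**Figure D5:**
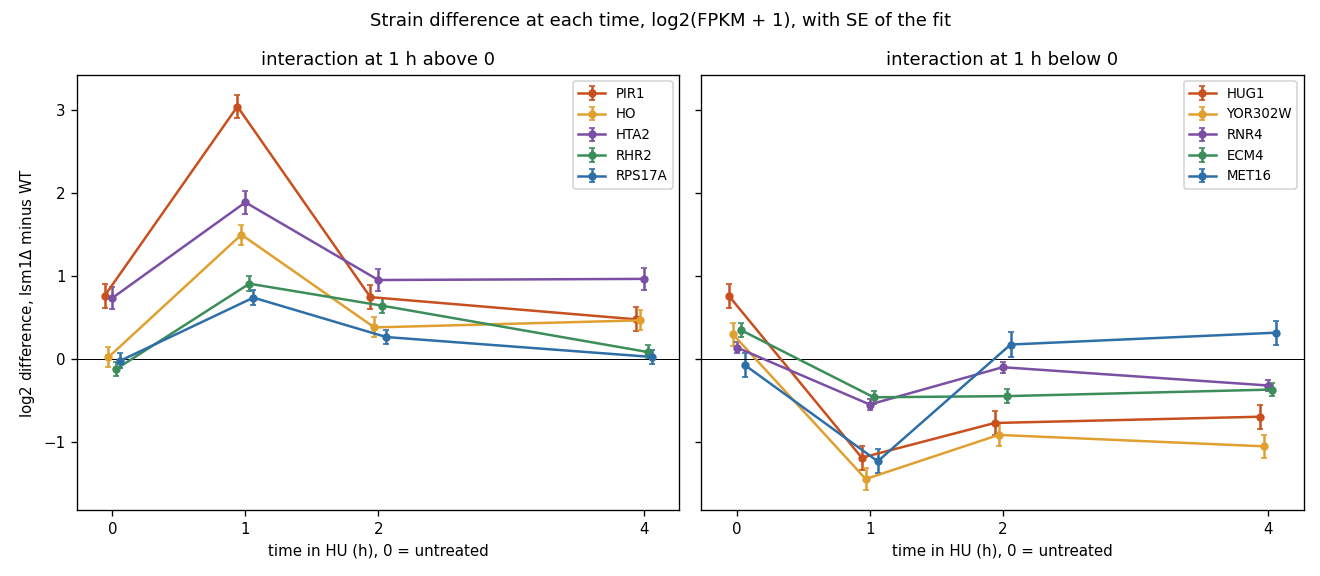
The log2 difference between *lsm1∆* and WT (vertical axis) at 0, 1, 2 and 4 h in HU (horizontal axis) for 5 genes called higher (left) and 5 called lower (right), with standard errors of the fit. The difference for *PIR1* is 0.76 untreated, 3.05 at 1 h and 0.75 at 2 h, and that for *HUG1* is 0.76 untreated, -1.19 at 1 h and -0.77 at 2 h.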

How the data were processed

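Total RNA depleted of ribosomal RNA was sequenced from WT and *lsm1∆* cultures without HU and at 1, 2 and 4 h of 200 mM HU, 2 libraries a group, with a kit that does not keep the strand. The authors aligned reads to the sacCer3 genome with Tophat2 and computed the deposited FPKM values per library with Cufflinks. These tables hold normalised values, so absolute depth is unknown, and no values of other samples were in them. FPKM depend on the other transcripts in a library, so a shift in abundant mRNAs moves all genes.

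Of 7126 genes, 6542 had status OK in every library and at least 5 FPKM in both libraries of 1 of the 4 groups. The interaction was fitted on log2(FPKM + 1), which understates changes of low genes, with limma 3.58.1 (R 4.3.3, empirical Bayes with trend, 8 residual degrees of freedom) over 16 libraries with a mean per group, with Benjamini-Hochberg adjustment across all 6542 genes. Genes were called at an adjusted p under 0.05. The fit was tested on simulated data. Fold changes are 2 to the power of the fitted difference, and SE is the standard error of the fit. Relative depth came from 183 low genes at whole-read steps of up to 6 reads, within a relative deviation of 0.06 from the whole-read value. Tables and figures were made with Python 3.11.15, pandas 2.3.3 and matplotlib 3.10.9.

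The names in the text are the 12 largest rises and 12 largest falls among called genes of at least 300 bp with 1 sign in both replicate numbers, the RNR genes and *HUG1*, the study's 6 candidates, 3 Yox1 targets, and up to 3 called members of each of the 36 gene lists. Other names are said to be chosen for their values. The comparison, the members and the lists were chosen with earlier results of these data known. Some items of the lists and motifs are not reported here. Lists are described by counts and medians without a set test. Motifs (11, both strands) were searched in 5636 windows of the R64 genome from RefSeq, each 300 bases long. The libraries share replicate numbers across groups, but no source says that a number marks a shared culture or day, so the fit has no block for it. The alternatives tried were another pseudocount, filters, centring, fits without trend, with only 8 libraries, with a replicate block, with a stricter threshold, and with each library left out.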

Additional observations from a re-analysis of the deposited data

Results flagged for a closer look

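The 38 called genes are those for which the difference between the strains after 1 h in HU was tested against the difference before HU and found to be another (limma, Benjamini-Hochberg adjusted p under 0.05). Groups of 2 libraries were not tested for outlying samples. The values are log2 differences of differences, positive where the *lsm1∆* to WT ratio was larger in HU.

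Higher values were those of *PIR1* at 2.28, *HO* at 1.48, YKL187C at 1.26, *HTA2* at 1.15, RUF5-1 at 1.09, RUF5-2 at 1.09, *GPX2* at 1.03, *RHR2* at 1.03, *MUM3* at 1.01, *RPS17A* at 0.76, *RPS22A* at 0.75, BUD28 at 0.64, *TAD2* at 0.64, *RPS7A* at 0.64, *RPS21B* at 0.63, *RPL23A* at 0.63, YGL102C at 0.59, *RPS18A* at 0.57, *HTB1* at 0.55, *RPS24A* at 0.54, *MRP21* at 0.52, *RPL36A* at 0.50 and *RPL33B* at 0.45. *PIR1*, *HO* and *RHR2* had an adjusted p of 0.0038, 0.0098 and 0.012, and the p of the other 20 lay nearer the threshold.

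Lower values were those of *HUG1* at -1.95, YOR302W at -1.75, *MET16* at -1.16, *ADH7* at -0.99, *AMS1* at -0.91, *CLB1* at -0.82, *ECM4* at -0.81, YBR241C at -0.81, *MSN4* at -0.74, *ECM38* at -0.72, YEL047C at -0.69, *RNR4* at -0.69, *PMP1* at -0.63, *LAP3* at -0.60 and YFR016C at -0.47. *HUG1* and YOR302W were called in every fit with 1 library left out, as was *PIR1* among those above.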

How the results depend on the processing

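All 38 called genes kept their direction with each library left out in turn, which their selection from the same libraries makes near certain. The number of calls did not keep its size. Without 1 library there were 1 to 9 genes called higher and 2 to 7 called lower, and leaving out any of the 8 moved both counts by over 1.5 times, lowest for the higher calls without *lsm1∆* in HU replicate 1. Other settings gave, as genes higher and lower, 3 and 2 with only the 8 libraries in the fit, 13 and 13 without the trend in the variance, 2 and 2 at an adjusted p under 0.01, and, in a fit of protein-coding genes only that was chosen after seeing the data, 35 and 32. Both counts stayed within 1.5 times of 23 and 15 with a pseudocount of 0.1 (20 and 16), no filter (21 and 14), a filter on group means (22 and 14) and a filter of 1 FPKM in 2 libraries (20 and 15). Centring gave 28 and 10. The cause of these shifts was not tested, beyond the fewer libraries or genes that a setting leaves.

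Centring moved the median of all genes from -0.09 to -0.01 and turned the sign of the median of 7 lists, those of decapping, the proteasome, Yap1, copper and zinc, pyrimidine, TCA cycle and meiotic genes. It left 21 of the 23 and 10 of the 15 called. With 1 library left out the median changed sign in 8 of 36 lists.

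Same-numbered libraries correlated at -0.004 to 0.295 in their deviations from the group means. The highest value was between untreated *lsm1∆* and untreated WT. These values do not establish a pairing, and an effect shared by libraries of the same number was not tested. With a replicate block 44 genes were called higher and 43 lower, which included all 23 and all 15.

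With 2 libraries a group, a call depended on the spread between libraries as well as on the size of the difference. Of 284 genes that differed by 2-fold or more, 12 were called, and the smallest called difference was 0.45. Values under 20 FPKM and loci under 300 bp are the least certain, and a value that missed the threshold does not show that the strains responded alike.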
